A study of Mus musculus with 12 samples.

Results

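Telencephalic patterning factors were followed through the embryonic mouse cortex at the level of single nuclei. The 9 genes Pax6, Emx1, Emx2, Lhx2, Dmrta2, Dmrt3, Gsx2, Lmo3 and Lmo4 were taken as a list by their symbols, and all 9 were found among the 23513 genes of the tables. Nuclei came from cortices of C57BL/6J embryos, which carried no engineered allele. Pregnant dams received once-daily intraperitoneal injections of EtOH in saline, or of saline alone, from the onset of neurulation to the day before collection, and tissue was taken at embryonic day 14. The saline group held 5 embryos from dams S1 (S1-1, S1-2) and S2 (S2-1, S2-2, S2-4), and the EtOH group 6 embryos from dams E1 (E1-1, E1-2) and E2 (E2-1, E2-2, E2-3, E2-4). The litters of S1 and E1 formed batch 1 of library preparation and those of S2 and E2 batch 2. The treated unit was the dam, with 2 dams per group, whereas the tests below take littermates as independent embryos. After filtering by the authors, 50550 nuclei in 25 clusters remained, grouped as radial glial cells (RGCs, 5 clusters), intermediate progenitor cells (IPCs), projection neurons (PN), interneurons (Int) and 3 clusters outside these classes (Other).

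The early telencephalon is divided into a dorsal part, the pallium, which forms the cortex and its glutamatergic neurons, and a ventral part, the subpallium, which forms the striatum and most GABAergic interneurons. Pax6, Emx1, Emx2 and Lhx2 are homeodomain transcription factors that establish pallial identity and area pattern in RGCs, and Dmrta2 and Dmrt3 are DM-domain factors that act in dorsal and medial pallial progenitors near the cortical hem, a midline source of Wnt signals. Gsx2 is a homeodomain factor of subpallial progenitors and opposes Pax6 across the boundary between pallium and subpallium. Lmo3 and Lmo4 are LIM-only proteins without a DNA-binding homeodomain, which bind the cofactors that LIM-homeodomain factors such as Lhx2 require, so that "patterning transcription factor" describes them only loosely.

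The markers Hes1, Eomes, Neurod2 and Gad2 had their highest levels in clusters of their class, with some overlap between classes. Other listed markers did not. The RGC marker Sox2 reached 106 CPM in an Int cluster, against at most 95.5 in RGC clusters. The PN marker Bcl11b reached 1907 CPM in Other and 1237 in Int, against at most 1200 in PN. Mean levels of the RGC marker Hes1 were 47.0 to 99.4 CPM in RGC clusters and 1.98 to 4.18 in PN clusters. The IPC marker Eomes lay between 202 and 414 CPM in IPC clusters, the PN marker Neurod2 between 80.2 and 294 in PN clusters, and the interneuron marker Gad2 between 608 and 1248 in Int clusters. Neurod2 was also at 92.5 to 106 CPM in IPC clusters, above the lowest PN cluster, and Gad2 reached 1172 CPM in the class Other. CPM is a gene's count per 1000000 UMIs (unique molecular identifiers, 1 per captured RNA molecule), after the counts of each embryo had been added up within a cluster.

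Libraries differed in ways that touch every comparison of treatments. Saline embryos held 44017566 to 83061737 UMIs with medians of 6325 to 9051 per nucleus, and EtOH embryos 14078316 to 38034349 UMIs with medians of 4072 to 6911. The library labelled S2-4 stood apart from its group. In RGCs and in PN, genes were ranked by the p-value of their difference between treatments with 1 embryo left out, and on the first 500 the left-out embryo was placed between the means of the remaining embryos. S2-4, a saline embryo by its label, lay nearer to the EtOH mean on 98.6% of these genes in RGCs and on 98.2% in PN. The other saline embryos did so on 6.0% to 28.2% in both classes, and the EtOH embryos on 69.2% to 90.2%. Without S2-4, the calls over all genes and clusters went from 1721 to 19059. Without any other single embryo they fell to between 89 (S1-1) and 766 (E1-1), or 0.0408% to 0.345% of the pairs tested. Over major cell types they went from 2528 to 11363 without S2-4 and to between 0 (E2-2, S1-2 or S2-1) and 1320 (E1-1) without another embryo. Counts of calls and the pairs with the smallest p are therefore given with and without S2-4. Of all barcodes, 314 occurred in 2 or more libraries, and leaving out their 638 nuclei changed no call on the 9 factors.

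Pax6, the paired and homeodomain factor of RGCs, was highest in the non-mitotic RGCs of Cluster 12, at 420 ± 47.4 CPM (SD, n = 11). RGCs of Cluster 2 followed with 336 ± 50.5, and Cluster 12 exceeded Cluster 2 in 11 of 11 embryos. Mitotic IPCs (Cluster 17) held 194 ± 39.4 CPM, which exceeded the level in the interneurons of Cluster 13 (166 ± 42.7) by less than the spread between embryos. A second site of Pax6 lay among the interneurons. Int Clusters 13, 23 and 10 had 166, 104 and 103 CPM of Pax6, while Cluster 18 had 18.7. PN clusters had 9.72 to 34.1 CPM, the highest of them in early PN (Cluster 9). The same Int Cluster 13 held the highest level of Meis2, another homeodomain factor, at 7081 CPM, and Cluster 23 that of Sp8, a zinc-finger transcription factor, at 64.0 CPM.

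Emx1, a marker of the cortical lineage, had its highest level in IPCs rather than RGCs. Non-mitotic IPCs (Cluster 6) held 103 ± 16.5 CPM, mitotic IPCs (Cluster 17) 82.9 ± 18.2 and RGC Clusters 2 and 12 held 75.0 and 65.0. Each of the neighbouring levels except Cluster 17 against 2 differed by more than the larger SD. Emx1 stayed measurable in early PN at 46.8 CPM and in most other PN clusters, and was at 3.39 to 18.5 CPM in Int clusters.

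Emx2, the paralogue of Emx1, was highest outside the progenitors, in Cluster 14, at 104 ± 22.5 CPM. This cluster held the highest levels of the Cajal-Retzius markers Reln (10477 CPM), Trp73 (542 CPM) and Ebf3 (770 CPM). RGCs of Cluster 2 had 63.7 ± 9.17 CPM of Emx2, and Cluster 14 was higher in 11 of 11 embryos. IPC clusters held 31.9 and 33.1 CPM, and PN clusters 1.85 to 20.9. The paralogues thus differed in where they were highest, and Cluster 14 held 14.2 CPM of Emx1 against 103 in Cluster 6.

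Lhx2, a LIM-homeodomain factor that restricts the hem and maintains cortical identity, was highest in IPC Cluster 6 at 316 ± 51.3 CPM and in RGC Cluster 2 at 291 ± 42.8, a difference within the spread between embryos. Mitotic IPCs (228), early PN (219) and Cluster 12 (201) followed. In RGC Cluster 21, named cortical hem by the authors, Lhx2 was at 40.0 ± 26.4 CPM, the lowest level of the 5 RGC clusters. Int clusters held 16.4 to 73.5 CPM.

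Cluster 21 was in turn the site of Dmrt3, at 68.1 ± 20.9 CPM (n = 10 embryos with at least 10 nuclei), against 30.5 ± 8.28 in Cluster 2 and 24 ± 12.1 in Cluster 14. It was higher in Cluster 21 than in Cluster 2 in 10 of 10 embryos. The related Dmrta2 was spread more evenly over dorsal progenitors. It had 50.2 ± 5.87 CPM in Cluster 2, 44.2 ± 12.3 in Cluster 21, 41.7 in Cluster 17, 38.8 in Cluster 14 and 38.4 in Cluster 6, and neighbours in this order did not differ beyond their spread. The hem identity of Cluster 21 was visible in Rspo2 (4059 CPM), Lmx1a (1052 CPM), Wnt8b (316 CPM) and Wnt3a (183 CPM), all highest there. Ttr, a marker of choroid plexus, was at 734 ± 373 CPM in the same cluster, with a UMI in 294 of its 627 nuclei, and 17 of the 627 shared a barcode with another library.

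Gsx2 was rare. Cluster 3, named interneuron precursors, held 6.06 ± 2.91 CPM, and 132 of its 4074 nuclei (3.24%) had a UMI of Gsx2. Late interneuron precursors (Cluster 10) had 1.97 ± 1.33 CPM and Cluster 20, a further RGC cluster, 1.3 ± 1.66. In the remaining clusters it was at 0 to 0.633 CPM. No UMI was found in 2457 nuclei of early PN, which allows a share of nuclei with a UMI of up to 0.122% by counting error alone and sets no limit on the share of nuclei that express the gene. The 132 nuclei with Gsx2 held Pax6 at 127 CPM and the 3942 without held it at 128 CPM, summed over embryos. A UMI of Pax6 was found in 45.5% of the nuclei with Gsx2 and in 37.4% of those without. Their median depths were 7270 and 6163 UMIs.

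The LIM-only genes had their highest levels in neurons. Lmo3 reached 490 ± 64.4 CPM in PN Cluster 8, 435 ± 121 in callosal PN (Cluster 22) and 432 ± 174 in Int Cluster 15, and these 3 did not differ beyond their spread. It was lowest in Cluster 14, at 34.3 CPM. Callosal PN of Cluster 1 held only 74.6 CPM. Lmo4 was highest in Int Cluster 18 at 228 ± 73.3 CPM, followed by 144 in Cluster 19, 132 in caudal subcortical PN (Cluster 16), 132 in Cluster 10, 125 in Cluster 24 and 114 in striatal Cluster 11. It was lowest in RGC Cluster 12, at 25.3 CPM. Rostral subcortical PN (Cluster 4) had 330 CPM of Lmo3 and 35.2 of Lmo4, and caudal ones had 139 and 132.

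**Figure D1:**
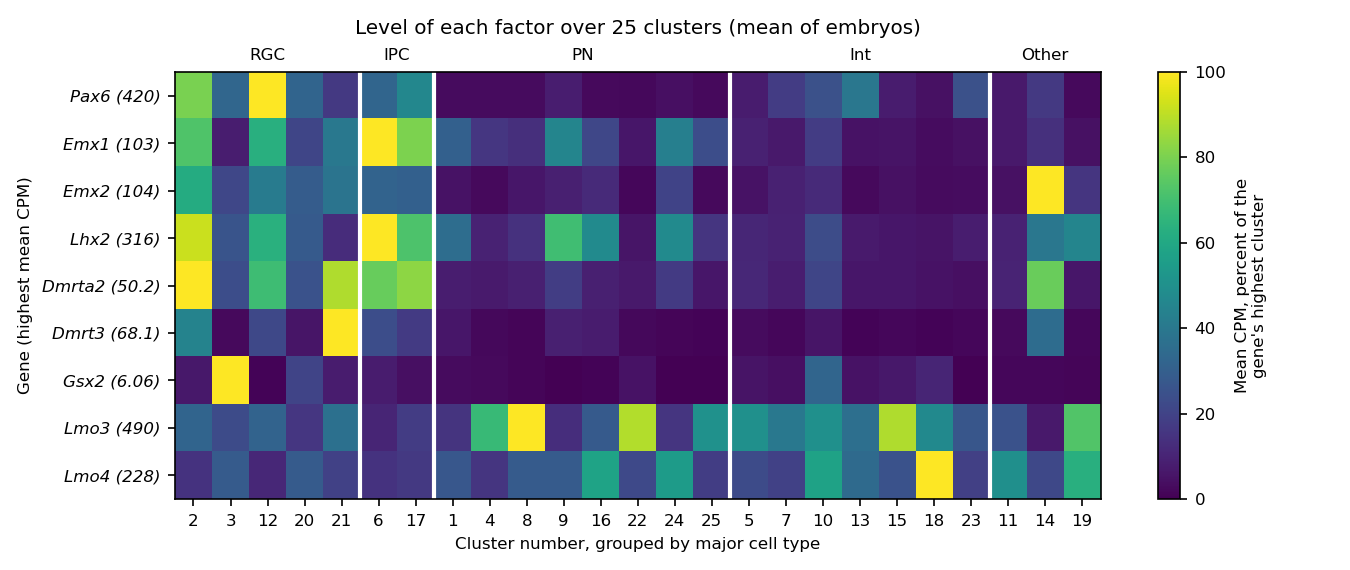
Mean level of each factor (rows) in each of 25 clusters (columns, grouped by major cell type), coloured as a percentage of that gene's highest cluster, whose mean CPM over embryos stands in brackets. Pax6 is brightest in RGC Cluster 12, Dmrta2 in RGC Cluster 2, Emx1 and Lhx2 in IPC Cluster 6, Emx2 in Cluster 14, Dmrt3 in Cluster 21, Gsx2 in Cluster 3, and Lmo3 and Lmo4 in neuronal columns.

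Since clusters were built from the same transcripts, the order of levels is a description. It is read within a gene and not between genes. Over the 25 clusters, profiles were compared by Pearson's r of log2(mean CPM + 1), across clusters that share embryos and libraries. Among the members, Dmrta2 was most like Dmrt3 (r = 0.90) and Emx2 (r = 0.89), and Lhx2 was most like Emx1 (r = 0.80). Lmo3 ran against Lhx2 (r = -0.61).

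Genes lying next to a member or on its opposite strand led several of the lists. Against 11621 genes, the 3 most similar to Pax6 were Pax6os1 (r = 0.94), Usp8 (r = 0.93) and Dnajc24 (r = 0.93). Emx2 was followed by Emx2os (r = 0.97), Dennd1a (r = 0.90) and Dmrta2 (r = 0.89), and Lhx2 by Gm13584 (r = 0.97), Kctd15 (r = 0.87) and Dgkd (r = 0.84). For Dmrta2 they were Alpk1 (r = 0.93), Dmrta2os (r = 0.91) and Dmrt3 (r = 0.90), and for Dmrt3 they were Dmrta2os (r = 0.91), Dmrta2 (r = 0.90) and E330013P04Rik (r = 0.90). Emx1 was most like Alpk1 (r = 0.89), Ccdc136 (r = 0.86) and Fgd4 (r = 0.86), and Gsx2 most like Tmem219 (r = 0.87), Olig2 (r = 0.84) and Chic2 (r = 0.84). The LIM-only genes had looser matches, Mef2c (r = 0.73), Plppr5 (r = 0.71) and Shank2 (r = 0.70) for Lmo3, and Prdm10 (r = 0.77), Plcxd3 (r = 0.68) and 4931428F04Rik (r = 0.67) for Lmo4.

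In the GENCODE M21 annotation of GRCm38, Pax6 lies on chromosome 2 from 105668900 to 105697364 on the plus strand, and Pax6os1 overlaps its first 1431 bases from the other strand. Gm13584 (chromosome 2, 38359580 to 38363980, minus strand) lies wholly inside Lhx2 (38339281 to 38369733, plus strand). Emx2os overlaps Emx2 (chromosome 19, 59458372 to 59465357, plus strand) by 264 bases, and Dmrta2os lies 240 bases before Dmrta2 (chromosome 4, 109978053 to 109983687, plus strand). Dmrt3 lies on the same chromosome as Emx2 (chromosome 19, 25610301 to 25623921, plus strand), Emx1 (85187438 to 85204462, plus strand) and Lmo3 (138362918 to 138581968, minus strand) both lie on chromosome 6, Gsx2 on chromosome 5 (75075601 to 75077893, plus strand) and Lmo4 on chromosome 3 (144188530 to 144205220, minus strand). Gm27197 also overlaps Lhx2 from the other strand, by 960 bases. Lmo3 is overlapped from the other strand by Gm30332 (17643 bases), A830011K09Rik (6488 bases) and B230110G15Rik (1345 bases). Gm43445 overlaps Lmo4 on the same strand by 2091 bases and is not among the genes counted. The strand used in counting is not given in the sources used here, so reads of these overlapping genes, Lmo3 and Lmo4 included, cannot be told apart with certainty. The 27 matches comprise 24 different genes, and 6 of the matches lie within 1 Mb of their member.

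The DNA upstream of the start is shown for Pax6 and Dmrta2, where a gene on the opposite strand overlaps or adjoins it and shares their profile. Emx2 has such a gene too, Emx2os, and its upstream DNA is not shown. Both sequences are from RefSeq promoters on GRCm38.p6, plus strand, 5′ to 3′, with CCAAT boxes (CCAAT, or ATTGG on the other strand) in capitals. The Pax6 window is chr2:105668646-105668895, the 250 bases before the RefSeq start and within the span of Pax6os1, and the Dmrta2 window is chr4:109977814-109978024, the 211 bases between Dmrta2os and the RefSeq start of Dmrta2.
Pax6: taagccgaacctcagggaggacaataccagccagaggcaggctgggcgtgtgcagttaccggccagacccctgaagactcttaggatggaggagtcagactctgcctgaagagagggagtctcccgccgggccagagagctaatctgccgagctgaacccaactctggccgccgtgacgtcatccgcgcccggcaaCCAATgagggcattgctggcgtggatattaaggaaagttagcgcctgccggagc
Dmrta2: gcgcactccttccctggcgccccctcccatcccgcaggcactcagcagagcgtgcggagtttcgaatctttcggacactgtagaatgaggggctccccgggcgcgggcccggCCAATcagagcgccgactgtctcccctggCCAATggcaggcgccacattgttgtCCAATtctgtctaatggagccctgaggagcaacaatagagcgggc
The Pax6 window holds 1 such box and the Dmrta2 window 3. CCAAT boxes were found in 33.8% of 32851 windows of 250 bases before a start in that table, so a match is a common feature and a description only.

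Whether EtOH changed the factors was tested per cluster with edgeR's quasi-likelihood test on counts summed per embryo, with p-values adjusted over all genes of a cluster (Benjamini-Hochberg). A pair was called where the adjusted p was below 0.05 and the log2 fold change exceeded 0.32 in size. Of 147 pairs of a factor and a cluster that passed the filter on low counts, 0 were called, where 0.792% of all tested pairs of a gene and a cluster were. At an unadjusted p under 0.05 there were 24 pairs, 16.3% against 17.4% of all genes. DESeq2 called 2 pairs (Gsx2 in Cluster 3 and Lhx2 in Cluster 5), against 2.6% of all genes. Limma with the dam as a random block called 2 (Gsx2 and Lhx2 in Cluster 3), against 2.24%, and edgeR on counts summed per dam 2 of 174 (Lmo3 in Clusters 3 and 14, 1.15%), against 0.721%. Without a filter on low counts there were 9 of 221 (4.07%), against 2.07%. Without S2-4, edgeR called 8 of 148 pairs, 5.41% against 8.78% of all genes. These were Lhx2 in Clusters 3, 5, 16 and 19, Gsx2 in Cluster 3, Pax6 in Cluster 17, Lmo3 in Cluster 1 and Lmo4 in Cluster 11. Without E1-1, Lmo4 in Cluster 11 alone was called, and without any other embryo none was. Gsx2 could be tested in Cluster 3 alone, Dmrt3 in 7 clusters, Dmrta2 in 13, Emx2 in 16, Emx1 in 17, Pax6 in 21, Lhx2 in 23, Lmo4 in 24 and Lmo3 in 25. Gsx2 passed the filter in Cluster 3 through the EtOH embryos alone.

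**Figure D2:**
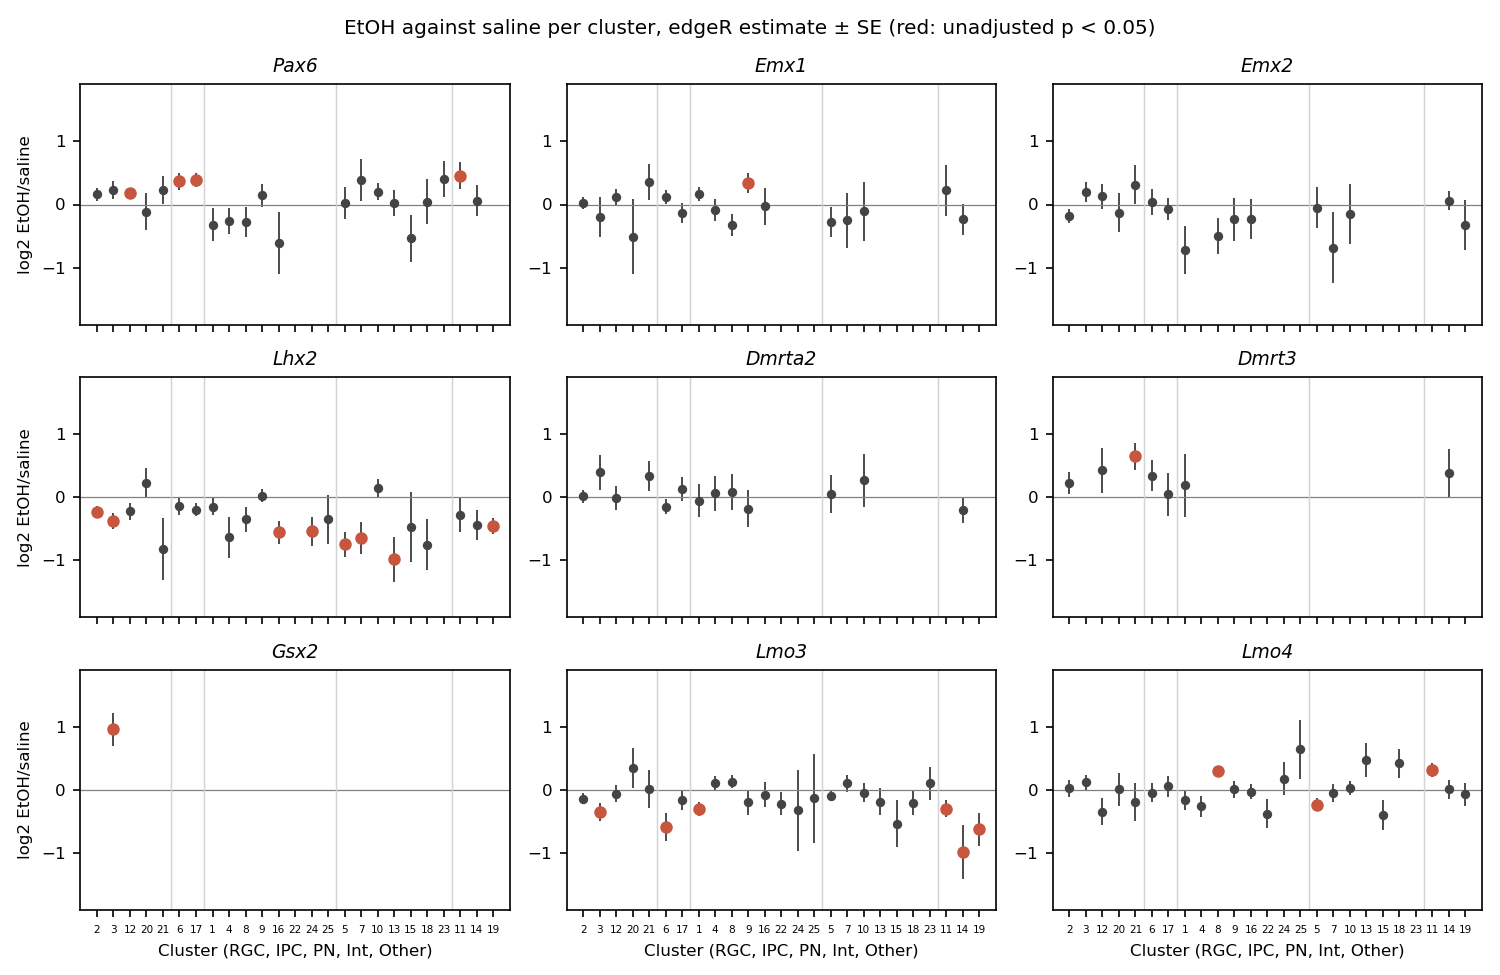
Log2 fold change of EtOH over saline (y axis, edgeR estimate ± SE) per factor and cluster (x axis, grouped as RGC, IPC, PN, Int and Other from left to right), with pairs at an unadjusted p under 0.05 in red. Lhx2 lies below 0 in 20 of 23 clusters, and no point passed the adjusted threshold.

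In the cluster where each factor was highest, the groups overlapped for every factor but Gsx2. How often the groups separate over all genes was not counted, so no share stands beside this. Pax6 in Cluster 12 was at 349, 412, 366, 373 and 427 CPM in saline embryos S1-1, S1-2, S2-1, S2-2 and S2-4, and between 394 and 499 with a median of 442 in the 6 EtOH embryos. S2-4 was the highest saline embryo, and 5 of 6 EtOH embryos lay above it. The means were 385 ± 32.5 CPM in saline and 449 ± 38.1 in EtOH, with an adjusted p of 0.209 by edgeR. Dmrt3 in Cluster 21 was at 36.7, 43.9, 62.7, 52.7 and 69.4 CPM in the saline embryos in the same order, and between 65.3 and 103 with a median of 79.0 in the 5 EtOH embryos that had at least 10 nuclei. S2-4 was the highest saline embryo and the only one within the EtOH range. The log2 fold change was 0.65 ± 0.21 (SE), with an adjusted p of 0.187. Within batches, the log2 ratio of the group means was 1.13 in batch 1 and 0.37 in batch 2.

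Emx1 in Cluster 6 was at 91.5, 91.3, 71.8, 106 and 119 CPM in the saline embryos (95.9 ± 17.7) and between 93.6 and 127 with a median of 107 in EtOH (109 ± 13.9). Emx2 in Cluster 14 was at 98.8, 106, 74.5, 120 and 92.9 CPM in saline (98.4 ± 16.7) and between 71.5 and 151 with a median of 110.3 in EtOH (108 ± 27.1). Dmrta2 in Cluster 2 was at 39.2, 50.8, 43.3, 53.9 and 56.9 CPM in saline (48.8 ± 7.38) and between 45.8 and 56.1 with a median of 51.6 in EtOH (51.3 ± 4.68). For these 3, the groups overlapped widely and the means differed by less than the SD of the saline group.

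Lhx2 in Cluster 6 was at 344, 354, 219, 378 and 334 CPM in saline (326 ± 62.0) and between 231 and 367 with a median of 316 in EtOH (308 ± 44.9). Lmo3 in Cluster 8 was at 485, 492, 465, 348 and 500 CPM in saline (458 ± 62.9) and between 425 and 580.1 with a median of 528 in EtOH (517 ± 56.7). Lmo4 in Cluster 18 was at 234, 208, 126, 162 and 232 CPM in saline (192 ± 47.1) and between 152 and 345 with a median of 254 in EtOH (258 ± 81.1). S2-1 stood low for Lhx2 and S2-2 for Lmo3, and the groups overlapped for all 3.

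**Figure D3:**
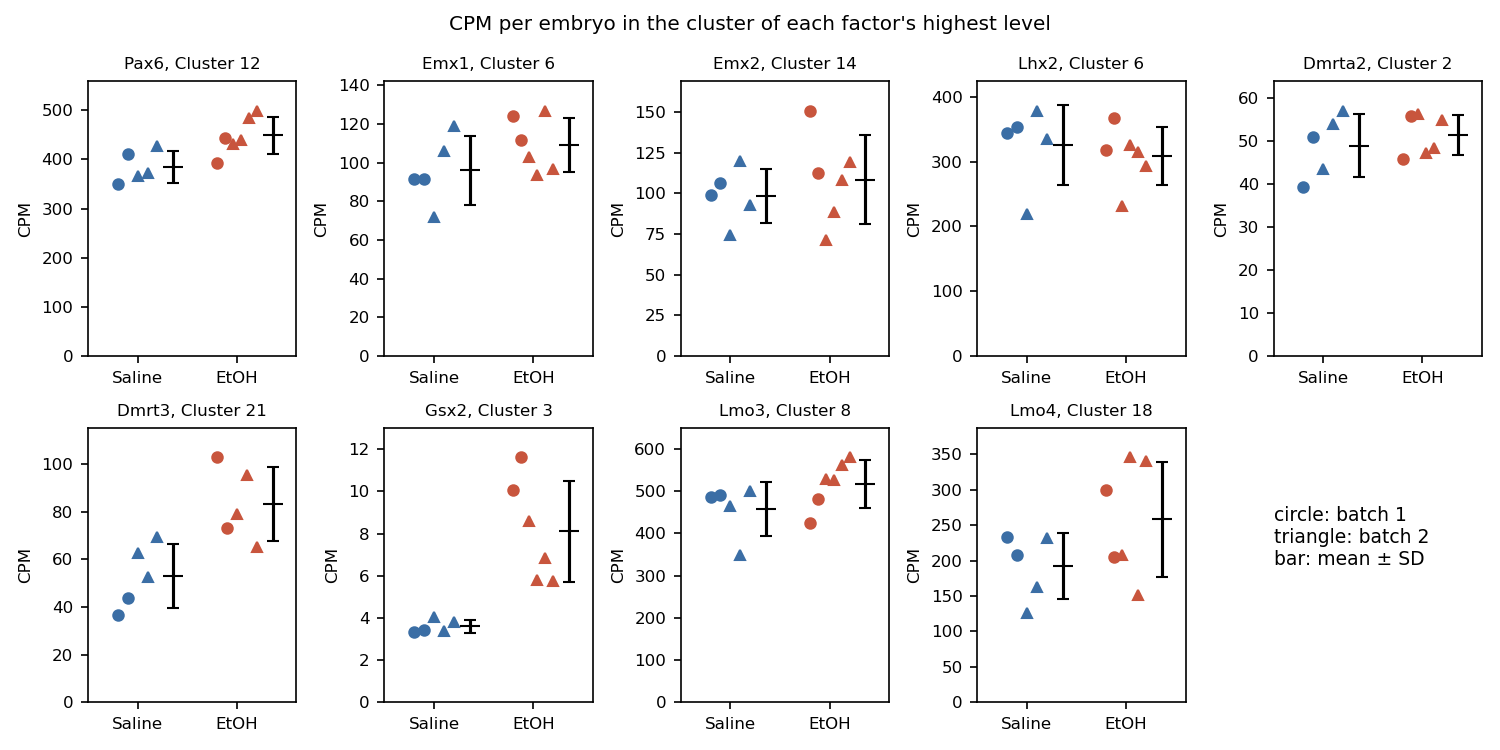
CPM of each factor (y axis, from 0) in the cluster of its highest level, 1 point per embryo by treatment (x axis), circles for batch 1 and triangles for batch 2, with mean ± SD beside the points. Gsx2 in Cluster 3 is the only panel without overlap, with saline embryos up to 4.05 CPM and EtOH embryos from 5.73.

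Gsx2 in Cluster 3 was at 3.34, 3.44, 4.05, 3.37 and 3.79 CPM in S1-1, S1-2, S2-1, S2-2 and S2-4, and in EtOH embryos between 5.73 and 11.6 with a median of 7.72. Every EtOH embryo was above every saline embryo, S2-4 included, and the 2 highest were E1-1 and E1-2. These levels rest on 6 to 30 UMIs per embryo. The share of all genes with such a separation was not counted. Without the filter on low counts, Gsx2 was called in 0 of 21 clusters, with lower estimates in 13 and higher in 8. In Cluster 3, only EtOH embryos reached the level which that filter asks for. Gsx2 was thus tested through the group where it was high, so the separation and the p-values here are a description only. The log2 fold change was 0.96 ± 0.26 (SE), with an adjusted p of 0.0537 by edgeR, 0.0473 by DESeq2 and 0.0207 by edgeR without S2-4. Within batches, the log2 ratio of means was 1.67 in batch 1 and 0.85 in batch 2. In the same cluster the progenitor marker Hes1 rose by a log2 fold change of 0.60, the hem marker Wnt2b rose by 1.21 and the proliferation marker Mki67 fell by 0.42, while 3 of 4 tested interneuron markers had a lower estimate without a call. The part of these markers in the Gsx2 values was not tested. The other listed RGC, hem and proliferation markers are not given for this cluster, so Hes1, Wnt2b and Mki67 do not stand for their lists.

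Lhx2 had the smallest p-values with a lower level. In Cluster 19, which the authors named unknown, it was at 162, 134, 185, 207 and 155 CPM in S1-1, S1-2, S2-1, S2-2 and S2-4, and between 102 and 143 with a median of 127 in EtOH. Only E1-2 lay above the lowest saline embryo. The log2 fold change was -0.46 ± 0.13 (adjusted p = 0.108 by edgeR, 0.0312 without S2-4). In migrating interneurons (Cluster 5) it was at 33.9, 42.8, 35.5, 63.9 and 41.2 CPM in the saline embryos in the same order, and between 12.5 and 36.6 with a median of 27.0 in EtOH. Here E2-4 alone lay inside the saline range, and the log2 fold change was -0.74 ± 0.20 (adjusted p = 0.0589 by edgeR, 0.0131 by DESeq2, 0.0274 without S2-4). The log2 ratio of means within batches 1 and 2 was -0.41 and -0.93 in Cluster 5, and -0.22 and -0.58 in Cluster 19. In the clusters tested, Lhx2 had a lower estimate in 20 of 23, with a median log2 fold change of -0.37, where 49.0% of all estimates were below 0. The clusters come from the same embryos and are not independent. The count was 20 of 23 with the other size factors and 14 of 16 after thinning nuclei to 2000 UMIs. Without S2-2 it was 21 of 24, with a median of -0.23.

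The Lhx2 level in Cluster 5 was itself low. After thinning to 2000 UMIs per nucleus, 4.15% of its nuclei had a UMI of Lhx2, against 2.59% in Cluster 18, where the gene was lowest, and 42.7% in Cluster 2. In Cluster 5, markers of other classes had lower estimates in EtOH as well, 5 of 5 for PN and 3 of 3 for IPC, with 0 of these called, and the striatal markers Ebf1 and Foxp1 fell. Bcl11b, counted here with PN, was at 345 to 1237 CPM in Int clusters, against 723 to 1200 in PN clusters. The part of these markers in the Lhx2 values was not tested. Rarb, the other striatal marker listed, is not given for this cluster.

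The estimates of Gm13584, an opposite-strand gene inside Lhx2, had the same sign as those of Lhx2 in 2 of 16 clusters where both were tested and the other sign in the remaining ones. The gene was examined after its profile had been seen to match that of Lhx2. Gm13584 had a higher estimate in 16 of 16 clusters tested, with a median log2 fold change of 0.91, and it rose in callosal PN (Cluster 1, log2 fold change 0.90, adjusted p = 0.0432 by edgeR). In Cluster 6, Gm13584 was between 18.2 and 86.3 CPM with a median of 33.2 in saline and between 70.6 and 96.1 with a median of 86.3 in EtOH. The saline embryo at 86.3 was S2-4, the next highest had 41.4, and the groups did not overlap without it. In the same nuclei Lhx2 was at a median of 344 CPM in saline and 316 in EtOH. Without S2-4, edgeR called Gm13584 in 11 of 15 clusters, where 8.78% of all tested pairs of a gene and a cluster were called. Without any other single embryo it was called in 0 (against 0.0408% to 0.345%), and with batch in the fit in 0 (against 0.419%). With all embryos, DESeq2 called it in 6 of 16, against 2.6% of all genes. Limma with the dam as a random block called it in 3 of 16 (against 2.24%). By edgeR, counts summed per dam gave 5 of 19 (against 0.721%), no gene filter 5 of 25 (against 2.07%) and thinning 2 of 6 (against 0.569%). Higher estimates held in 16 of 16 clusters with the other size factors and in 6 of 6 after thinning.

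**Figure D4:**
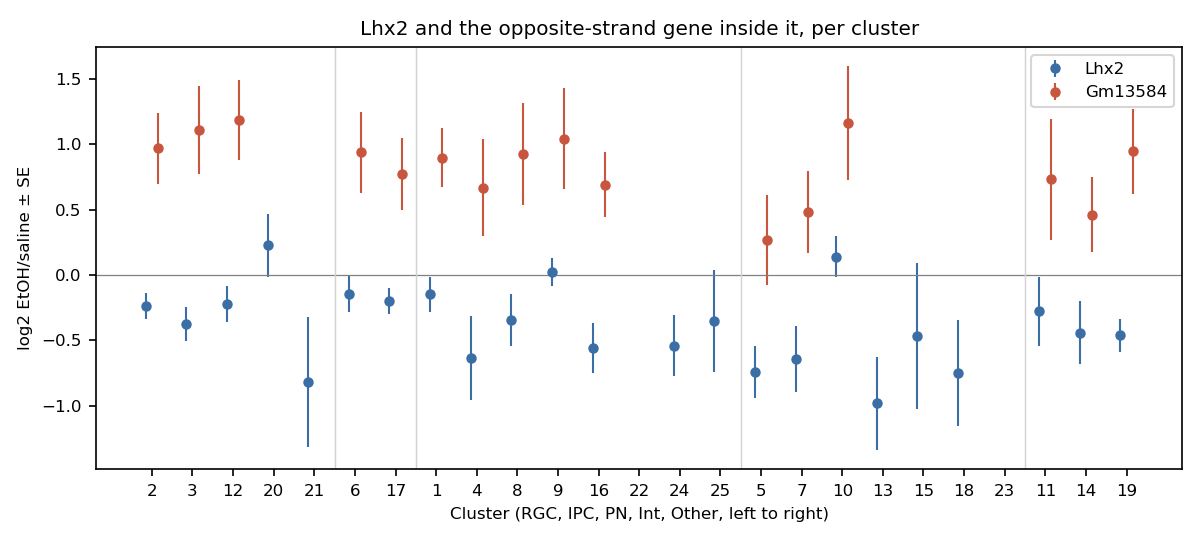
Log2 fold change of EtOH over saline (y axis, edgeR estimate ± SE) for Lhx2 and for Gm13584, per cluster (x axis, grouped as RGC, IPC, PN, Int and Other). Gm13584 is above 0 in all 16 clusters tested and Lhx2 below 0 in 20 of 23.

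Pax6 had higher estimates in IPCs and most RGC clusters. In mitotic IPCs (Cluster 17) it was at 144, 155, 152, 170 and 198 CPM in S1-1, S1-2, S2-1, S2-2 and S2-4, and between 167 and 247 with a median of 232 in EtOH. S2-4 was the highest saline embryo, and E1-1 and E2-2 lay within the saline range. The log2 fold change was 0.39 ± 0.11 (adjusted p = 0.113 by edgeR, 0.00889 without S2-4). In non-mitotic IPCs (Cluster 6) the log2 fold change was 0.37 ± 0.13 and in Cluster 12 0.18 ± 0.08, with adjusted p of 0.135 and 0.209. In PN Clusters 1, 4, 8 and 16, where Pax6 was low, the estimates were below 0 and none was called. In Cluster 17 the PN marker Neurod2 fell by 0.73 on the log2 scale and the Cajal-Retzius marker Reln by 1.09. The other listed PN and Cajal-Retzius markers are not given for this cluster.

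Lmo4 in PN Cluster 8 was at 48.2, 57.2, 63.8, 64.5 and 55.4 CPM in the saline embryos and between 63.1 and 81.6 with a median of 71.5 in EtOH. E1-1 alone lay within the saline range with E1-2 just above it, and the log2 fold change was 0.30 ± 0.09 (adjusted p = 0.0797 by edgeR, 0.0551 without S2-4). Over 24 clusters its estimates were below 0 in 11 and above in 13. Lmo3 was below 0 in 19 of 25, with a median log2 fold change of -0.16, and in 16 of 23 after thinning.

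Counts summed over each major cell type gave 41 pairs, of which 2 were called, against 3.75% of all genes. Without S2-4 the calls were 4, against 16.9%, with Pax6 (log2 fold change 0.41) and Lmo3 (-0.49) in IPCs added. With batch in the fit 1 pair was called, against 2.3%, and after thinning 0 of 36, against 1.26%. At an unadjusted p under 0.05 there were 7 of 41 pairs, where 27.7% of all genes passed. Lmo3 fell in the class Other and Emx2 fell in PN. DESeq2 and limma with the dam as a random block called 3 pairs each, against 8.0% and 5.82% of all genes, with Lhx2 in Int added (log2 fold change -0.54 and -0.52, adjusted p = 0.0223 and 0.0478). By edgeR, Lhx2 in Int had a log2 fold change of -0.53 and an adjusted p of 0.0681.

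Lmo3 in Other was at 183, 166, 159, 190 and 141 CPM in S1-1, S1-2, S2-1, S2-2 and S2-4, and between 80.7 and 130 with a median of 119 in EtOH. The groups did not overlap, a separation whose share over all genes was not counted, and S2-4 was the lowest saline embryo. The log2 fold change was -0.60 ± 0.12 (adjusted p = 0.0441 by edgeR, where 0.493% of genes in this class were called lower). With batch in the fit the adjusted p was 0.056, and with counts summed per dam 0.105. It was 0.000793 without S2-4 and 0.038 without E1-1, and the call was lost without each of the other embryos. Each of the 3 clusters of this class had a lower estimate, -0.30 in Cluster 11, -0.98 in Cluster 14 and -0.62 in Cluster 19, with none called. Cluster 11 made up 51.3% ± 12.6 of these nuclei in saline and 55.0% ± 8.87 in EtOH, and Cluster 19, the richest in Lmo3, 17.1% ± 3.32 and 14.1% ± 4.34. All 5 PN markers had lower estimates in this class too, with 0 called. Bcl11b among them is not particular to PN, as it reached 1907 CPM in Other against at most 1200 in PN clusters. Mki67 fell by 0.69 on the log2 scale, and Top2a, the other proliferation marker listed, is not given for this class. The part of the PN markers and of Mki67 in the result was not tested.

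Emx2 in PN was at 6.39, 6.92, 6.30, 10.0 and 6.61 CPM in the saline embryos and between 3.55 and 6.67 with a median of 4.84 in EtOH. S2-2 stood above the other saline embryos and E1-2 lay within their range. The log2 fold change was -0.66 ± 0.17 (adjusted p = 0.036 by edgeR, where 2.36% of genes in PN were called lower). Without S2-4 the adjusted p was 0.00637, and the call held further without E1-1 or E1-2 and was lost without each of the other embryos or with counts summed per dam (adjusted p = 0.196). The log2 ratio of means was -0.15 in batch 1 and -0.86 in batch 2. At 2000 UMIs per nucleus, 1.22% of saline PN nuclei had a UMI of Emx2, against 1.34% of interneurons. Among PN, the mean levels of Clusters 24 and 16 (20.9 and 12.6 CPM) lay above that of the highest Int cluster (12.2 CPM). IPC markers Eomes and Neurog2 fell in PN too, by 0.66 and 0.71 on the log2 scale. Mfap4, the other IPC marker listed, is not given for PN. Emx2 was at 1.85 to 20.9 CPM over the PN clusters, so the sum depends on how many nuclei of each cluster an embryo gave. The mix of PN clusters per embryo is not given here. Its part and that of the markers in the Emx2 values was not tested.

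**Figure D5:**
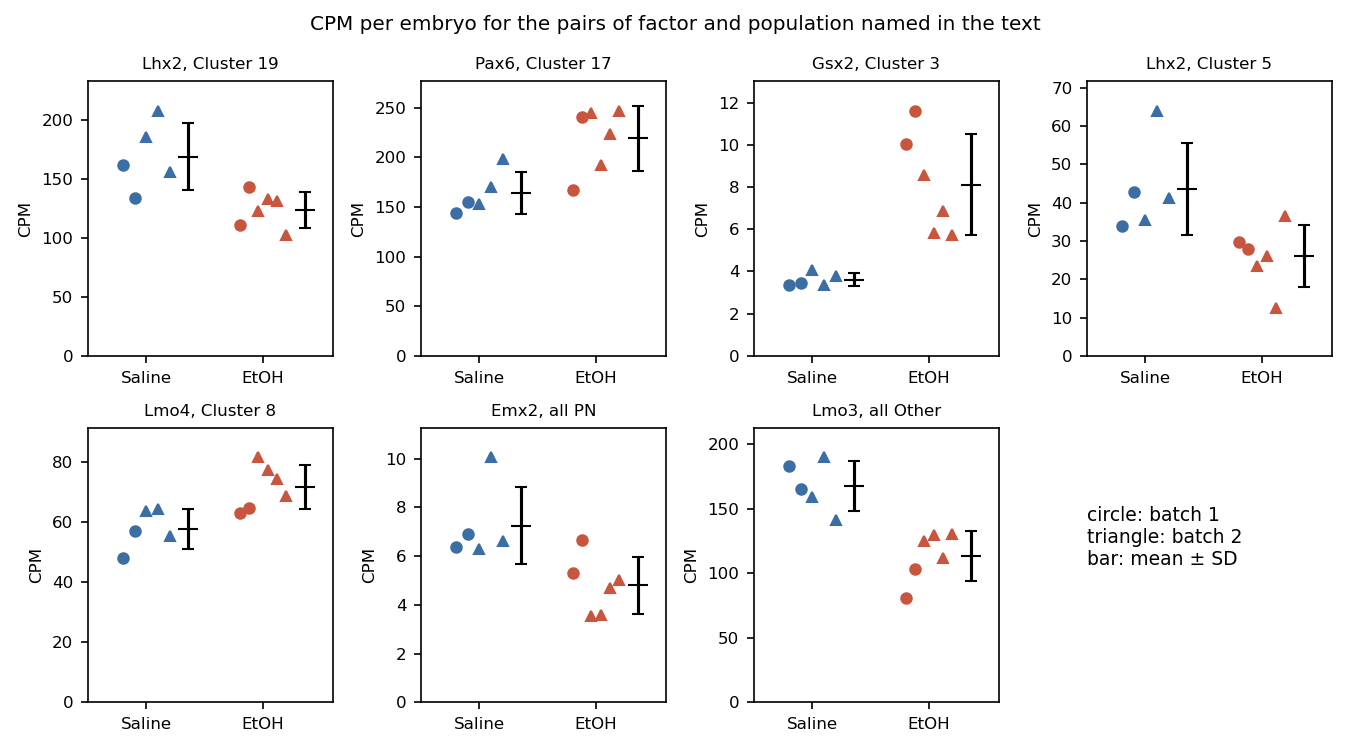
CPM per embryo (y axis, from 0) by treatment (x axis) for the 5 pairs of factor and cluster with the smallest p and for Emx2 over all PN and Lmo3 over all Other nuclei, circles for batch 1 and triangles for batch 2, with mean ± SD beside the points. Gsx2 in Cluster 3 and Lmo3 in Other show no overlap between treatments.

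The share of nuclei with at least 1 UMI was compared after thinning each nucleus to 2000 UMIs, which left out 177 saline and 210 EtOH nuclei that were shallower. Over 9 factors and 5 classes, 6 of 45 differences had an unadjusted p under 0.05 by a two-sided exact permutation test, 13.3% against 11.4% of all genes. None of the 45, and 0 of 107397 pairs of a gene and a class, passed after adjustment over all genes, where 0.00216 is the smallest value that 462 splits can give. The smallest p was that of Pax6 in IPCs, from 20.9% ± 3.87 in saline (n = 5) to 27.4% ± 3.03 in EtOH (n = 6), with an exact p of 0.00866 and an adjusted p of 0.295. Pax6 in RGCs went from 32.3% ± 4.81 to 38.8% ± 3.99 (exact p = 0.0411, adjusted p = 0.407). Lhx2 in interneurons went from 6.20% ± 1.82 to 3.84% ± 1.28 (exact p = 0.0195, adjusted p = 0.328). The remaining ones were Emx2 in PN, Lmo3 in Other and Lmo3 in RGCs, all lower in EtOH. Their exact p were 0.0173, 0.0260 and 0.0390, with adjusted p of 0.319, 0.351 and 0.402. Unthinned, 21 of the 45 had an unadjusted p under 0.05 (46.7% against 30% of all genes) and 0 passed after adjustment over all genes, and Pax6 in IPCs was then at 48.2% in saline and 48.5% in EtOH, at the unequal depths given above. Without S2-4, 6 had an unadjusted p under 0.05 (13.3% against 14.1%) and 0 passed after adjustment.

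Other regulators of forebrain pattern gave the setting of these values. Of 16 such genes, 14 could be tested, in 194 pairs with a cluster, and 5 pairs were called (2.58% against 0.792% of all genes), all lower. Gli3, a zinc-finger repressor of Shh signalling in dorsal progenitors, was highest in Cluster 12 at 1824 CPM and fell in Clusters 1, 8, 9 and 16, with log2 fold changes of -1.38, -1.17, -0.75 and -1.64. In the same PN clusters, RGC markers had lower estimates in 3 of 3, 2 of 3, 2 of 2 and 2 of 2 tested, with 1 called (in Cluster 9). Both proliferation markers were below 0 in each, with 1 called (in Cluster 8), and IPC markers were below 0 in 3 of 3, 2 of 2 and 3 of 3 in Clusters 1, 8 and 9, with 1 called (in Cluster 1). Striatal markers fell in Clusters 1 (2 of 3) and 9 (1 of 3). The part of these markers in the Gli3 values was not tested. Nkx2-1, a homeodomain factor of the medial ganglionic eminence, fell in Cluster 3 with -1.38. Without S2-4 the calls on this list were 18 of 194 (9.28% against 8.78% of all genes). They were 2 with batch in the fit (1.03% against 0.419%). Without E2-1, E2-2, E2-4, S1-1 or S2-1 they were 0, where 0.0408% to 0.141% of all genes were called, and without each of the remaining embryos 1 to 3, where 0.0816% to 0.345% were. Over major cell types, 5 of 63 pairs were called (7.94% against 3.75%), 2 with batch in the fit (3.17% against 2.3%), 7 without S2-4 (11.1% against 16.9%) and 0 to 5 without another embryo (where 0% to 1.93% of all genes were called). Among them, Gli3 and Nr2e1 fell in PN (-0.99 and -0.68) and Nkx2-1 fell in Int (-1.01). Nr2e1 had 199 CPM in Cluster 12 and Otx1 45.4 in Cluster 2. Cluster 3 held the most Gsx1 (0.384 CPM), and Cluster 20 the most Dbx1 (7.26 CPM). Otx2 was highest in Cluster 21 at 244 CPM and Lhx5 in Cluster 14 at 99.8 CPM. Of the genes highest in neurons, Nkx2-1 had 56.0 CPM in Cluster 15, and Nr2f1 and Nr2f2 438 and 362 in Cluster 23.

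The partners of LIM proteins comprise the adaptors Ldb1 and Ldb2, the single-strand binding cofactors Ssbp2, Ssbp3 and Ssbp4, and the further LIM-only genes Lmo1 and Lmo2. In 140 pairs, 5 were called (3.57% against 0.792% of all genes), 3 higher and 2 lower. Ssbp4 rose in Clusters 2, 5 and 11 with log2 fold changes of 0.85, 0.79 and 0.80. Ssbp2 fell in Cluster 9 with -0.48 and Lmo1 in Cluster 3 with -0.55. Without S2-4 the calls were 22 of 142 (15.5% against 8.78%). They were 0 to 2 without any other single embryo (where 0.0408% to 0.345% of all genes were called), 1 with batch in the fit (0.714% against 0.419%) and 0 of 105 after thinning, against 0.569%. Over major cell types, 5 of 34 pairs were called (14.7% against 3.75%), and 1 with batch in the fit (2.94% against 2.3%). The calls were 6 without S2-4 (17.6% against 16.9%) and 0 to 2 without another embryo, where 0% to 1.93% of all genes were called. Ssbp4 rose in RGC, PN, Int and Other by 0.82, 0.68, 0.65 and 0.83 on the log2 scale, and Ssbp2 fell in IPCs by 0.35. Ldb1 was highest in Cluster 6 at 97.1 CPM, alongside Lhx2. Ldb2 (1300.1 CPM) and Ssbp3 (665 CPM) were highest in Cluster 4, Ssbp2 in Cluster 13 (1005 CPM), Ssbp4 in Cluster 19 (38.4 CPM), Lmo1 in Cluster 16 (113 CPM) and Lmo2 in Cluster 21 (73.5 CPM).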

How the data were processed

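The authors aligned reads with Cell Ranger to mm10, filtered nuclei and genes, clustered the nuclei and deposited raw UMI counts as 275 tables, 1 per embryo and cluster; the counting strand and use of introns are not given in the sources used here. The further embryo S2-3 was not used here. The methods name no doublet caller, and doublets were not removed. Counts were summed per embryo and cluster or major cell type, requiring at least 10 nuclei per embryo and 2 embryos per group, and tested with edgeR 4.0.16 (TMM, filterByExpr, robust quasi-likelihood fit) in R 4.3.3. Errors are SDs between embryos, except SEs of fold changes. DESeq2 1.42.0, limma 3.58.1, RLE size factors, no gene filter, batch, dam sums, thinning, 30 nuclei and each embryo left out were alternatives, and leaving out shared barcodes and adjusting the share tests over all genes rather than over the 45 were added after seeing the data. Each tool was tested on simulated data. With edgeR, 86.6% of 1.5-fold changes were recovered in Cluster 2 (11637 genes) and 23.9% in Cluster 21 (6149 genes). The changed genes were drawn only from those of higher mean level. Embryos were simulated as independent, without a dam effect or a library apart from its group such as S2-4. The rates therefore do not extend to factors of low level. Total counts differed between embryos by 4.33 to 89.7 in chi-square per degree of freedom within groups (25 pairs) and by 5.43 to 75.3 across groups (30 pairs), so none was a repeat of another. S2-4 was in the pair at 89.7, with S2-1 of the same dam, and in the pair at 5.43, with E1-1, the shallowest embryo. The 9 genes, lists and tests were chosen with earlier results of these data known. Per-embryo values are given for each factor in its highest cluster, for called pairs and, as no pair with a cluster was called, for the 5 with the smallest p, and listed genes are named by their highest cluster, except some that are counted with their list but not reported here; Gm13584 was added after its values were seen. P-values rest on the spread between embryos, littermates included. Those from counts summed per dam rest on 2 dams per group, and limma with the dam as a block allowed for likeness of littermates. Intervals for 0 counts use 3 counts and cover counting error only.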

Additional observations from a re-analysis of the deposited data

Results flagged for a closer look

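In 30 groups of embryos (each factor in its highest cluster and each named pair, by treatment), 3 had an embryo set apart from the rest by more than Dixon's 95% criterion, a frequency at which chance alone would flag about 1 in 20 groups. Lhx2 in Cluster 6 was at 219 CPM in S2-1 and between 334 and 378 in the other saline embryos. Lmo3 in Cluster 8 was at 348 CPM in S2-2 and between 465 and 500 in the others. Emx2 over all PN was at 10.0 CPM in S2-2 and between 6.30 and 6.92 in the others, and its call was lost without S2-2.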

How the results depend on the processing

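Pairs called per cluster (0) became 2 with DESeq2, 9 without a gene filter, 2 with counts summed per dam and 2 with limma and the dam as a random block, and 0 to 8 with 1 embryo left out. Calls per major cell type (2) became 1 with batch as a replicate block and 0 with dam sums, against 2.3% and 1.23% of all genes. They became 0 after thinning (against 1.26%) and 0 to 4 with 1 embryo left out (against 0% to 16.9%). For the patterning list (5) the counts were 11 with DESeq2 (5.67%, against 2.6% of all genes), 25 without a gene filter (6.65% against 2.07%), 2 with the batch block (1.03% against 0.419%), 10 with limma (5.15% against 2.24%) and 0 to 18 with 1 embryo left out. For the LIM partners (5) under the same settings they were 11 (7.86%), 20 (11.4%), 1 with the batch block (0.714%), 12 with limma (8.57%), 0 after thinning and 0 to 22. The highest counts with 1 embryo left out were those without S2-4. Shares adjusted over the 45 differences (0) became 16 without thinning, where 0 passed after adjustment over all genes, and stayed at 0 to 0 with 1 embryo left out. Only the level of Pax6 in Cluster 12 moved beyond its spread, to 348 CPM with TMM scaling. The cause was not tested. No direction of a named pair reversed in the settings run. With at least 30 nuclei per embryo, calls were 0 for the factors per cluster, 2 per cell type, 6 for the patterning list and 5 for the LIM partners. The share of all genes called at that setting is not reported here, so these counts have no background beside them. Calls per cell type became 3 with DESeq2 and 3 with limma. Embryo numbers count littermates within a dam and pair no embryos across groups, so batch served as the block. Depth limits Gsx2, with 283 UMIs in all.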
